A study of Saccharomyces cerevisiae with 12 samples.

Results

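The genes described here are HTZ1, which encodes the histone variant H2A.Z of budding yeast, and the genes of 9 subunits of SWR1, the chromatin remodelling complex that installs it. They were chosen by name from the known make-up of the complex and were found by their systematic gene codes, 10 genes of the 7127 listed in each of 2 tables of raw fragment counts. Subunits that SWR1 shares with other complexes and that were not chosen (RVB1, RVB2, ARP4, ACT1 and BDF1) were read as a separate list.

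RNA was sequenced from 12 libraries of Saccharomyces cerevisiae cells of the BY4741 strain, in the S288C background, which were grown to mid-log phase in the rich glucose medium YPD and were not treated. The 4 groups of 3 libraries are WT_H2AZ, H2AZ_4KR, WT_Ino80 and Ino80_K929R, and each mutant has its own wild type in its own table. The name H2AZ_4KR states that 4 lysines of H2A.Z are replaced by arginine, and Ino80_K929R likewise has arginine for a lysine of Ino80, the ATPase of another remodelling complex, INO80. The labels do not say which lysines of H2A.Z were replaced, whether the alleles sit at their own loci or on plasmids, or whether the replicates came from separate cultures, so that p-values measure the spread between these libraries only. WT_Ino80 replicate 1 deviated most from its group, by a root mean square of 0.425 on the log2 scale. The other 11 libraries had 0.135 to 0.350. Ino80_K929R replicate 3 and WT_Ino80 replicate 2 came next, at 0.350 and 0.347. In WT_Ino80 replicate 1 the genes of at least 3000 bases had a median deviation of -0.465, against 0.276 and 0.192 in WT_Ino80 replicates 2 and 3.

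H2A.Z replaces the standard histone H2A in nucleosomes that flank the start sites of many genes. SWR1 carries out that exchange with the energy of ATP, dimer by dimer. Acetyltransferases then modify lysines in the N-terminal tail of H2A.Z, and the INO80 complex has been described as acting on nucleosomes that hold the variant.

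The start of the HTZ1 coding sequence is shown because it holds the tail lysines. The labels do not say whether these are the lysines that the 4KR allele replaces. HTZ1 (YOL012C) lies on chrXV:303579-303983, minus strand (sacCer3), as a single exon of 405 bases. Its first 20 codons lie at chrXV:303924-303983 and read 5′ to 3′ as follows, from the reference genome R64, with lysine codons in capitals.
HTZ1: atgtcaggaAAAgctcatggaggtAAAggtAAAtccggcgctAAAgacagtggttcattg
These are codons 4, 9, 11 and 15 with the start codon as 1, so 4 of the 16 lysine codons of the gene fall in this stretch. The counts do not tell reads of one allele from reads of another. HTZ1 shares no run longer than 15 bases with either H2A gene, HTA1 or HTA2, whereas these share 65 bases with each other. None of the 10 genes overlaps another listed gene, and 0 of their 50-base windows were found elsewhere in the genome.

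HTZ1 had the highest RNA level of the 10 genes in all 4 groups, when levels are set per length as FPKM, the share of a library's counted fragments per kilobase of gene. It stood at 237 ± 7.11 FPKM in WT_H2AZ and 956 ± 154 FPKM in H2AZ_4KR (SD, n = 3). In the other table it stood at 352 ± 3.05 FPKM in WT_Ino80 and 330 ± 29.2 FPKM in the Ino80_K929R libraries (SD, n = 3). Among 6008 protein-coding genes these levels lie at the 87.9, 96.0, 92.0 and 91.7 percentiles. The subunit genes were far below it. SWC7, a small and little characterised subunit, was the lowest in every group, between 2.84 FPKM in WT_Ino80 and 7.58 FPKM in WT_H2AZ.

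SWR1, the ATPase on which the complex is built, ranked from 2 to 7 of the 10 genes by group. It stood at 24.0 ± 2.18 FPKM in WT_H2AZ and 32.8 ± 4.08 FPKM in H2AZ_4KR (SD, n = 3). WT_Ino80 had 19.8 ± 3.89 FPKM and Ino80_K929R 24.9 ± 0.567 FPKM (SD, n = 3). In WT_H2AZ the order of levels was HTZ1, ARP6, YAF9, SWC4, SWR1, VPS71, SWC5, VPS72, SWC3 and SWC7. The libraries of YAF9 and SWC4 overlapped there, and so did each neighbouring pair from SWR1 to VPS72. In H2AZ_4KR, ARP6 stood at rank 6 in place of rank 2 and SWR1 at rank 2 in place of rank 5, with libraries that overlapped those of SWC5 and SWC4, respectively. In WT_Ino80 and Ino80_K929R, YAF9 followed HTZ1, and the libraries of SWR1 and VPS72 overlapped in both.

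**Figure D1:**
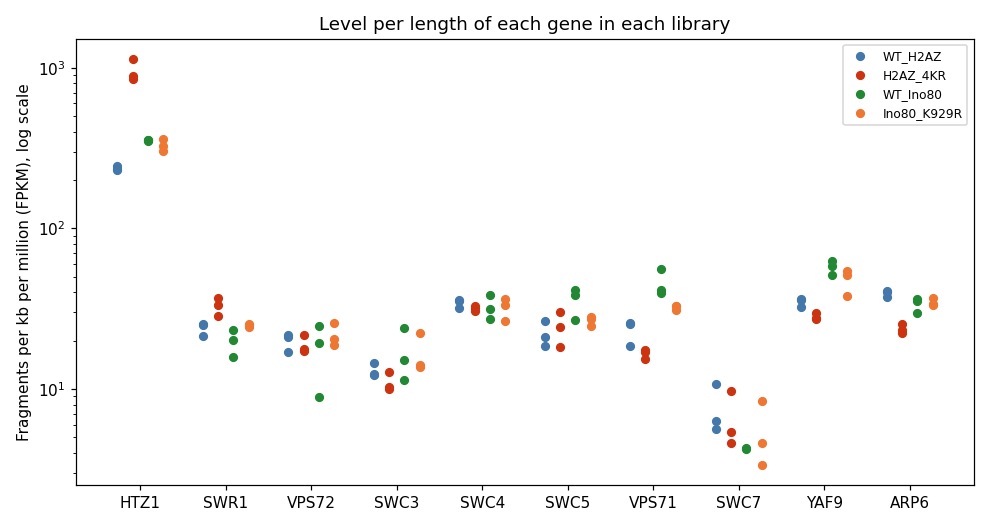
RNA level of the 10 genes in FPKM on a log axis, with 1 point per library and 1 colour per group of 3 libraries. HTZ1 lies above the other genes in every library and SWC7 lies lowest, with 1 WT_Ino80 library at 0 that a log axis cannot show.

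In H2AZ_4KR the gene that carries the mutation was itself the most altered of the 10. As CPM, a gene's share of all counted fragments without regard to length, HTZ1 stood at 98.9, 95.5 and 93.2 in WT_H2AZ replicates 1, 2 and 3, and at 344, 359 and 459 in H2AZ_4KR. Every mutant library stood above every wild-type library of either table, since WT_Ino80 held 143, 141 and 143 CPM and the libraries of Ino80_K929R held 132, 123 and 146 CPM. By edgeR's quasi-likelihood test with Benjamini-Hochberg adjustment, HTZ1 rose 4.45-fold (log2 fold change 2.15, SE 0.127, 95% interval 1.87 to 2.44, adjusted p = 1.1e-05). A call needed an adjusted p below 0.05 as well as a fold above 1.5, the limits stated for the series. The level of HTZ1 and the 4KR substitution occur in the same libraries and cannot be told apart.

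Of the 9 subunit genes, SWR1 rose and ARP6 fell, both just past the fold limit, and 7 were not called. With HTZ1 this makes 3 of 10 genes called, where 12.1% of the 6106 genes tested were called. For rises the count was 2 of 10 against 4.78%, and for falls 1 of 10 against 7.32%. The median log2 fold change was -0.01 over the 10 genes and -0.01 over all genes tested.

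SWR1 (YDR334W, chrIV:1135932-1140476, plus strand) stood at 115, 115 and 97.8 CPM in WT_H2AZ and at 151, 167 and 130 CPM in H2AZ_4KR. The groups did not overlap. Its fold change was 1.51 (log2 0.59, SE 0.112, 95% interval 0.34 to 0.84, adjusted p = 0.00494). ARP6 (YLR085C, chrXII:300673-301989, minus strand) encodes an actin-related protein that binds the Swr1 scaffold together with the Vps71 protein. It stood at 53.0, 53.4 and 49.6 CPM in WT_H2AZ and at 30.7, 29.4 and 33.5 CPM in H2AZ_4KR, again without overlap. It was 1.51-fold lower (log2 fold change -0.60, SE 0.104, 95% interval -0.82 to -0.37, adjusted p = 0.00332).

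Both adjusted p-values stayed below 0.05 in all 15 other settings tried, while the fold limit ended the call in some of them. The log2 change of SWR1 was 0.45 with scaling by total counts, and 0.55, 0.58 and 0.51 without WT_H2AZ replicate 3, H2AZ_4KR replicate 1 and H2AZ_4KR replicate 2. That of ARP6 was -0.58 with RLE factors, -0.54 with an offset for gene length, and -0.57 and -0.55 without WT_H2AZ replicate 1 and H2AZ_4KR replicate 2. Without H2AZ_4KR replicate 2 HTZ1 was the single gene of the 10 still called. With total counts the median over all genes went from -0.01 to -0.15, and the split of called genes from 292 up and 447 down to 138 up and 671 down. Relative to that median, SWR1 stood at 0.60 and ARP6 at -0.59 under both scalings.

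**Figure D2:**
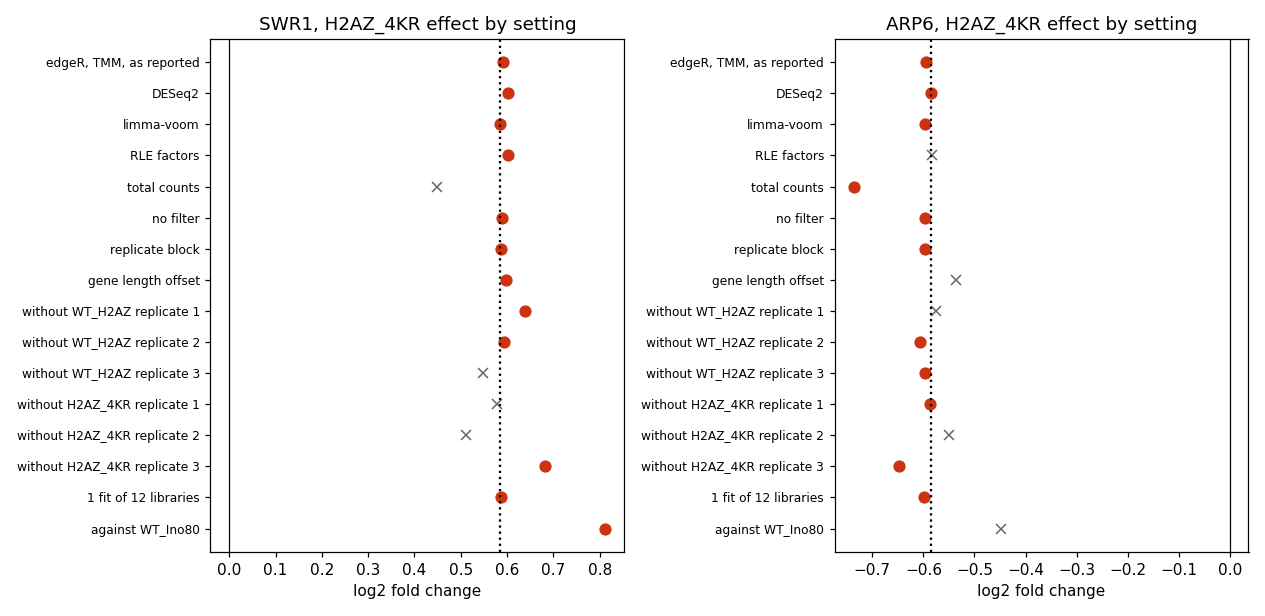
Log2 fold change of SWR1 and ARP6 in H2AZ_4KR under the reported setting and 15 others, with dotted lines at the 1.5-fold limit. Filled red points pass both limits and grey crosses do not; every SWR1 value lies above 0 and every ARP6 value below 0.

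The ratio of SWR1 to ARP6 within a library, a measure chosen after these values were seen, was 0.630, 0.621 and 0.572 in WT_H2AZ on the FPKM scale. It was 1.42, 1.64 and 1.12 in H2AZ_4KR, above every other library. Because the ratio sets the subunit gene that rose over the one that fell, this separation adds nothing to those calls. In WT_Ino80 the ratio was 0.446, 0.644 and 0.680, and in Ino80_K929R 0.690, 0.725 and 0.733.

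The genes of the other H2A.Z- and nucleosome-contacting subunits were not called in H2AZ_4KR. VPS71 (YML041C, chrXIII:194913-195755, minus strand), the zinc finger partner of Arp6, stood at 15.7, 21.7 and 21.3 CPM in WT_H2AZ and at 14.8, 13.0 and 14.4 CPM in H2AZ_4KR. All 3 mutant libraries lay below all 3 wild-type libraries, with a log2 difference of -0.33 (95% interval -0.70 to 0.03, adjusted p = 0.169). YAF9 (YNL107W, chrXIV:420098-420778, plus strand), whose YEATS domain binds acetylated histone tails, stood at 24.5, 24.6 and 21.9 CPM and at 18.7, 18.5 and 20.2 CPM. Its libraries did not overlap either, and its log2 difference was -0.16 (95% interval -0.44 to 0.11, adjusted p = 0.370). In all, 5 of 10 genes had groups without overlap, where 44.4% of all genes tested did. Of these 2 were higher, against 10.4% of all genes, and 3 lower, against 34%.

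VPS72 (YDR485C, chrIV:1424820-1427207, minus strand), which binds H2A.Z and DNA, gave a log2 difference of 0.05 (95% interval -0.25 to 0.35, adjusted p = 0.809). SWC5 (YBR231C, chrII:682179-683090, minus strand), which is required for the exchange, gave 0.28 (-0.14 to 0.70, adjusted p = 0.311). SWC4 (YGR002C, chrVII:498476-499906, minus strand) is a subunit that SWR1 shares with the acetyltransferase NuA4, as it does Yaf9, and gave 0.03 (-0.18 to 0.25, adjusted p = 0.831). These intervals lie inside the 1.5-fold limit in both directions for VPS72 and SWC4 and reach past it for SWC5. SWC3 (YAL011W, chrI:132199-134076, plus strand), whose place in the complex depends on Vps72, gave -0.10 (-0.41 to 0.21, adjusted p = 0.650). SWC7 (YLR385C, chrXII:892992-893390, minus strand), with 32 to 76 fragments in each of these 6 libraries, gave -0.06 (-0.92 to 0.79, adjusted p = 0.924), an interval that reaches past the 1.5-fold limit in both directions.

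**Figure D3:**
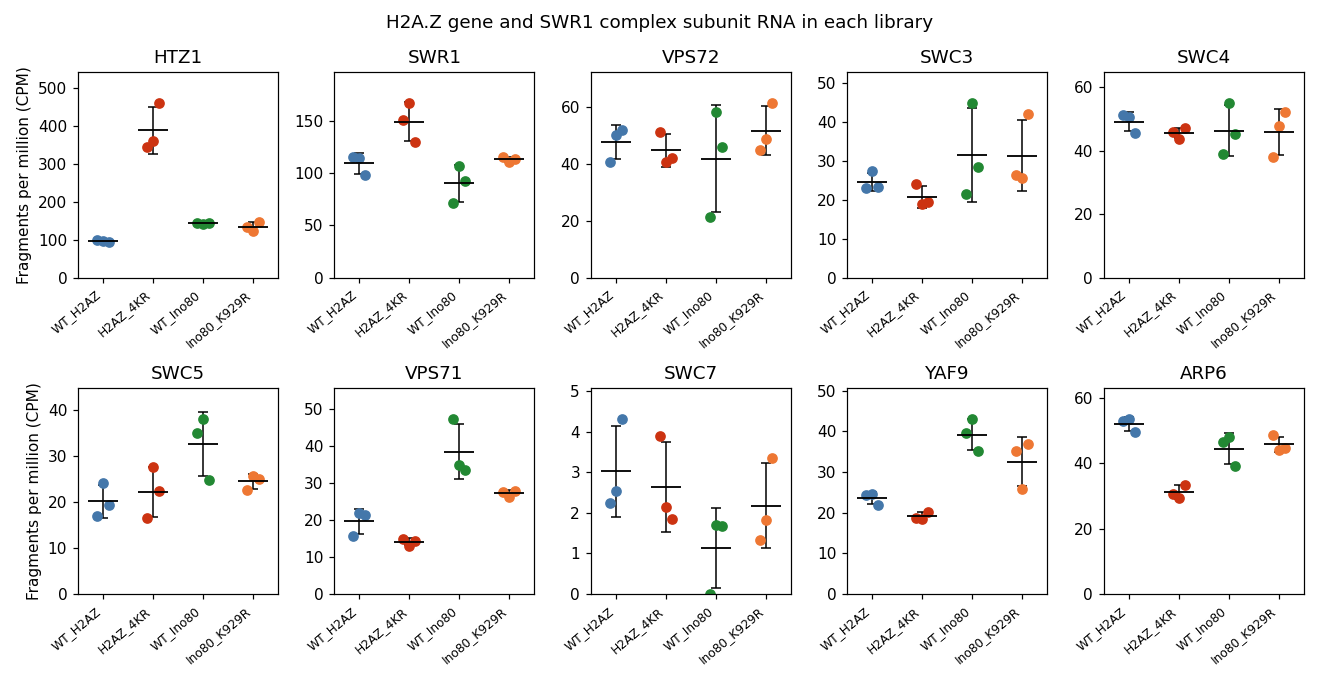
CPM of the 10 genes by group, 1 panel per gene, with 1 point per library, a bar at the mean of 3 libraries and an error bar of 1 SD. HTZ1 stands at 344 to 459 CPM in H2AZ_4KR and at 93.2 to 146 CPM in the other 9 libraries.

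WT_H2AZ and H2AZ_4KR also differ in a strain marker. LEU2, a leucine synthesis gene deleted in BY4741, had 0 fragments in all 3 WT_H2AZ libraries, which allows up to 0.172 CPM, and 148, 117 and 150 CPM in H2AZ_4KR. WT_Ino80 has LEU2 RNA, at 166 ± 14.9 CPM (SD, n = 3), so H2AZ_4KR was also set against it in the fit of 12 libraries, although table and strain differ there and 26.2% of genes were called. HTZ1 and SWR1 rose in that comparison too, by 1.51 and 0.81 on the log2 scale (edgeR adjusted p = 1.6e-05 and 0.000422). ARP6 was lower by a log2 difference of -0.45 (adjusted p = 0.0251), under the fold limit, and VPS71 and YAF9 fell, at -1.40 and -0.97 (adjusted p = 0.000381 and 0.000608). Without WT_Ino80 replicate 1 the values were 1.62 for HTZ1, 0.77 for SWR1, -0.30 for ARP6, -1.10 for VPS71 and -0.85 for YAF9. The calls for these 5 genes were the same. ARP6 then missed the limit on adjusted p as well as the fold limit (edgeR adjusted p = 0.0747, in place of 0.0251). SWC3 was called too (-0.63, adjusted p = 0.0388). The part of LEU2 in the results of H2AZ_4KR cannot be told apart from that of the 4KR allele.

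The other histone genes had smaller differences than HTZ1. Of 9 measured, HTA2, which encodes H2A, rose and 8 were not called, where 12.1% of all genes tested were called. Their median log2 fold change was 0.22 against -0.01 over all genes. HTA2 stood at 389, 372 and 359 CPM in WT_H2AZ and at 450, 584 and 520 CPM in H2AZ_4KR (log2 fold change 0.61, SE 0.117, adjusted p = 0.00511). HTA1 and HTA2 share a run of 65 bases, and reads that map to several places were not counted. Their values are therefore uncertain, to an extent that was not measured. The HTA2 call was lost with scaling by total counts (0.47), with the length offset (0.52), without WT_H2AZ replicate 2 (0.58), without H2AZ_4KR replicate 2 (0.53) and in the fit of 12 libraries (adjusted p = 0.0583). Set against WT_Ino80, 0 of the 9 rose and 3 fell, with a median of -0.21, where 26.2% of genes were called. Without WT_Ino80 replicate 1, 1 rose and 1 fell, with a median of 0.05, where 25% of genes were called.

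Set against H2A within each library, a measure chosen after the values were seen, HTZ1 stood at 0.0771, 0.0785 and 0.0796 of the summed FPKM of HTA1 and HTA2 in WT_H2AZ. The same ratio was 0.303, 0.233 and 0.316 in H2AZ_4KR. It was 0.0742, 0.104 and 0.0964 in WT_Ino80 and 0.101, 0.0976 and 0.112 in Ino80_K929R, so the 3 H2AZ_4KR libraries lay above the other 9. The uncertainty of the HTA1 and HTA2 values carries over to this ratio. Ratios of RNA levels are not ratios of the proteins.

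In H2AZ_4KR against WT_H2AZ no gene was called in the 3 lists of other genes that work with H2A.Z. Over all genes tested 12.1% were called. Of the 5 shared SWR1 subunits 0 were called (median 0.07), with ACT1, the actin gene, nearest at a log2 difference of 0.46 (adjusted p = 0.0494). Of 7 genes for chaperones, nuclear import and removal 0 were called (median -0.01), and CHZ1, a chaperone of H2A.Z-H2B dimers, gave 0.23. Of 9 genes for acetylation and deacetylation of the H2A.Z tail 0 were called (median -0.06). In that list EPL1 and YNG2, both subunits of NuA4, gave -0.34 and -0.39 (adjusted p = 0.0297 and 0.0499), under the fold limit. ESA1, the catalytic subunit of NuA4, gave -0.30 (adjusted p = 0.133). Against WT_Ino80, where 26.2% of genes were called, 2 genes of that list rose, 1 fell and the other lists had 0 called. Without WT_Ino80 replicate 1, 0 rose and 2 fell, where 25% were called. EPL1 then turned to 0.48 (edgeR adjusted p = 0.0157), under the fold limit. YNG2 and ESA1 were the 2 that fell, at -1.01 and -0.66 (edgeR adjusted p = 0.000332 and 0.0119).

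The genes on either side of HTZ1 were read as well. HRD1 (YOL013C, chrXV:301380-303035, minus strand), a ubiquitin ligase gene whose model lies 543 bases from that of HTZ1, stood at 179, 160 and 149 CPM in WT_H2AZ and at 123, 106 and 97.4 CPM in H2AZ_4KR. All 3 mutant libraries were lower, as for 34% of all genes tested, and the log2 difference of -0.44 (SE 0.116, adjusted p = 0.0211) was under the fold limit. WT_Ino80 and Ino80_K929R had means of 92.3 and 115 CPM, so WT_H2AZ held the highest mean of the 4 groups. Against WT_Ino80 without its replicate 1, H2AZ_4KR was higher by 0.37 (edgeR adjusted p = 0.159), not called. WT_Ino80 without that replicate was called lower than WT_H2AZ (-0.81, edgeR adjusted p = 0.00763). PLB3 (YOL011W, chrXV:305349-307409, plus strand), a phospholipase B gene 1365 bases away on the other side, gave 0.23 in H2AZ_4KR against WT_H2AZ (adjusted p = 0.143).

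In Ino80_K929R none of the 10 genes was called. Over all genes of that comparison, 1 of 6161 tested passed, which is 0.0162%. That gene was INO80, which carries the mutation, at 150 ± 24.4 CPM in WT_Ino80 and, in the mutant, 1200 ± 150 CPM (SD, n = 3; log2 fold change 2.95, SE 0.158, adjusted p = 0.000521). By edgeR the lowest unadjusted p of the 10 genes was 0.0392, for VPS71. DESeq2 and limma-voom also called 0 of the 10 genes.

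VPS71 stood at 47.2, 34.8 and 33.5 CPM in WT_Ino80 and at 27.5, 26.2 and 27.8 CPM in Ino80_K929R. The groups did not overlap, and the log2 difference was -0.58 (95% interval -1.12 to -0.04, edgeR adjusted p = 0.722). SWR1 was the other gene without overlap, at 71.4, 107 and 91.9 CPM and at 116, 110 and 113 CPM, with a log2 difference of 0.29 (95% interval -0.04 to 0.63, adjusted p = 0.722). With the offset for gene length the difference of SWR1, the longest of the 10 genes, was 0.0022. These 2 of 10 compare with 14.8% of all genes tested. HTZ1 gave -0.15 (95% interval -0.49 to 0.18, adjusted p = 0.774) and ARP6 gave -0.01 (-0.43 to 0.40, adjusted p = 0.981), both inside the 1.5-fold limit.

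In WT_Ino80 replicate 1, the library that deviated most, VPS72 was at 21.4 CPM, against 58.6 and 46.0 CPM in the other WT_Ino80 libraries. SWC7 had 0 fragments there, against 32 and 31. The VPS71 level of that library, 47.2 CPM, was the highest of the 12 libraries.

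Without that library 0 of 10 genes were called in Ino80_K929R. The log2 difference of VPS72 was then 0.02 in place of 0.29, that of SWC7 0.37 in place of 0.92, that of VPS71 -0.29 in place of -0.58 and that of SWC5 -0.31 in place of -0.47. HTZ1 gave -0.05, ARP6 0.12, SWR1 0.23, SWC3 -0.19, SWC4 -0.09 and YAF9 -0.22. With all libraries the remaining genes gave -0.06 for SWC4 (95% interval -0.44 to 0.32), -0.05 for SWC3 (-0.65 to 0.56) and -0.33 for YAF9 (-0.78 to 0.13). The intervals of VPS72 and SWC5 were -0.37 to 0.94 and -0.98 to 0.04. As for HTZ1 and ARP6, the interval of SWC4 lay inside the 1.5-fold limit. Those of SWR1, VPS72, SWC3, SWC5, VPS71, SWC7 and YAF9 reached past it.

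**Figure D4:**
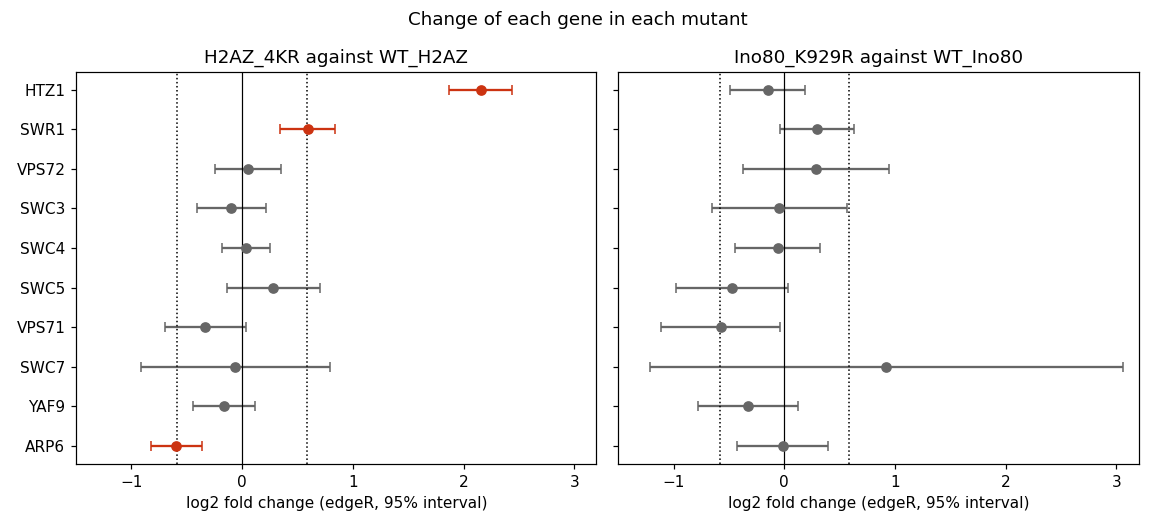
Log2 fold change of the 10 genes in each mutant against its own wild type (edgeR, 3 libraries a group), with 95% intervals and dotted lines at the 1.5-fold limit; red points were called. HTZ1, SWR1 and ARP6 are called in H2AZ_4KR and none in Ino80_K929R, where the interval of SWC7 runs from -1.21 to 3.06.

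Among the related lists in Ino80_K929R, 0 of 5 shared subunits (median -0.09), 0 of 9 acetylation genes (median 0.19) and 0 of 9 other histone genes were called. Over all genes tested 0.0162% were called. Of 7 genes for chaperones, nuclear import and removal 1 was called, INO80 itself, and the median was 0.08. The histone genes had a median log2 difference of -0.33 against -0.01 over all genes, and -0.04 without WT_Ino80 replicate 1. HHT1, HHF1 and HHF2, which encode histones H3 and H4, gave -0.63, -0.58 and -0.54, each with an adjusted p of 0.722. WT_Ino80 replicate 1 was the highest of the 12 libraries for each of these genes, and without it they gave -0.35, -0.32 and -0.27. The neighbours of HTZ1 were not called, with HRD1 at 0.27 and PLB3 at 0.09, or 0.32 and -0.20 without that library. HIS3, a marker gene partly deleted in BY4741, stood higher in every Ino80_K929R library than in WT_Ino80 (0.81, adjusted p = 0.722).

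Whether a change differed between the mutants was tested as a contrast in 1 fit of all 12 libraries, which are those of the comparisons above. Of the 10 genes HTZ1 was called, where 4.25% of 6235 genes were, with a difference in log2 fold change of 2.30 (SE 0.195, 95% interval 1.88 to 2.72, adjusted p = 7.48e-05). The difference for ARP6 was -0.59 (95% interval -1.01 to -0.16, adjusted p = 0.0947), and it was called without WT_Ino80 replicate 1 (-0.72, adjusted p = 0.0318), by DESeq2 (adjusted p = 0.0487) and with scaling by total counts (adjusted p = 0.0354). For SWR1 it was 0.29 (95% interval -0.09 to 0.67, adjusted p = 0.326), so the change of SWR1 was not shown to be particular to H2AZ_4KR.

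In the same fit the wild types, which are the controls of the comparisons above, differed from each other in 4 of the 10 genes, all higher in WT_Ino80, where 32.7% of genes were called and 17.7% were called higher. VPS71 was 2.10-fold higher in WT_Ino80 (log2 difference 1.07, adjusted p = 0.00168), YAF9 was higher by 0.80 (adjusted p = 0.00170), SWC5 by 0.77 (adjusted p = 0.0122) and HTZ1 by 0.64 (adjusted p = 0.00292). SWC5 stood at 17.0, 24.1 and 19.3 CPM in WT_H2AZ and at 35.0, 37.9 and 24.7 CPM in WT_Ino80, and YAF9 stood at 39.6, 42.9 and 35.1 CPM in WT_Ino80. All 4 genes had wild-type groups that did not overlap, as did 6 of the 10 genes and 49.7% of all genes. SWR1, VPS72, SWC3, SWC4, SWC7 and ARP6 were not called, with log2 differences from -1.41 to 0.40.

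**Figure D5:**
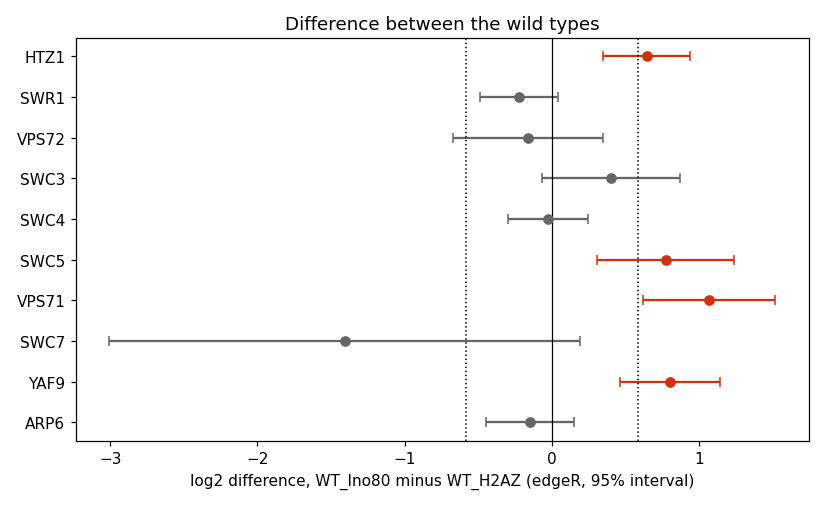
Log2 difference of the 10 genes between the wild types, WT_Ino80 minus WT_H2AZ (edgeR, 3 libraries a group), with 95% intervals and dotted lines at the 1.5-fold limit. HTZ1, SWC5, VPS71 and YAF9 are called and drawn in red, at 0.64 to 1.07.

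Strain and table cannot be told apart in that comparison, and without WT_Ino80 replicate 1 the difference of HTZ1 was 0.53, under the fold limit, that of VPS71 0.77, that of YAF9 0.68 and that of SWC5 0.60. Without WT_H2AZ replicate 1 SWC5 was not called (0.67, adjusted p = 0.0526). LEU2 had 0 fragments in WT_H2AZ and was detected in every WT_Ino80 library. HIS3 was lower in WT_Ino80 by a log2 difference of -1.08 (adjusted p = 0.00162). Genes of the MATa mating type, to which BY4741 belongs, summed to 1272 to 1824 CPM in WT_H2AZ and 541 to 1120 CPM in WT_Ino80. Of these 3 of 4 were called lower, where 32.7% of all genes were called. The count was the same without WT_Ino80 replicate 1, the library at 541 CPM, where 29.9% were called. STE2 made up the largest part of each sum and was not called without that library (-0.49, edgeR adjusted p = 0.106). MATalpha genes summed to 8.49 to 8.94 CPM in WT_H2AZ and 31.0 to 38.6 CPM in WT_Ino80. Of these 3 of 3 were called higher, where 17.7% of all genes were. The part of the mating-type genes in the differences of the 10 genes was not tested.

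The genes whose levels over the 12 libraries ran most like those of SWR1 were APC1, SEC61, SAC1, INO2 and AKR1, among 5314 genes whose mean was 10 CPM or more. Likeness is the root mean square difference of log2 CPM after each gene is centred on its mean. For these genes it was 0.0994 to 0.147, against 0.315 for the spread of SWR1 itself, and APC1, the nearest, encodes the largest subunit of the anaphase-promoting complex. For HTZ1 the nearest were FIT2, YLR179C, SUI1, RPS22A and ARN1, at 0.399 to 0.513 against a spread of 0.809. FIT2, whose product helps to retain iron-binding siderophores in the cell wall, had a mean of 455 CPM in WT_H2AZ and 1078 CPM in H2AZ_4KR. Its means in the other table were 441 CPM in WT_Ino80 and 398 CPM in the mutant.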

How the data were processed

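The deposited values are raw counts of fragments per gene, made with featureCounts 2.0.1 over exons of a sacCer3 annotation, unstranded, with reads left out where they matched more than 1 place or more than 1 gene, per the file headers. Reads were aligned with Bowtie 0.12.2, per the submitters' processing notes. Libraries held 17253140 to 20164258 counted fragments. Bounds from counts of 0 (up to 3 fragments) cover counting error only.

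Each mutant was compared with its wild type over all genes with edgeR 4.0.16 in R 4.3.3 (filterByExpr, minimum count 10, TMM factors, quasi-likelihood F test, Benjamini-Hochberg adjustment). All 10 genes passed the filter. Contrasts between mutants and between wild types used 1 fit of 12 libraries. CPM and FPKM were computed from the counts. FPKM used the length in the tables. Adjusted p-values are edgeR's unless named otherwise. DESeq2 1.42.0, limma 3.58.1 (voom), RLE factors, total counts, no filter, a length offset (loess, span 0.5), a replicate block, other fold limits, the other wild type and leaving out each library were alternatives. Fits were tested on simulated data.

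The genes and lists were chosen with earlier results of these data known. Named genes are the 10, list genes that were called or had the 3 smallest p-values, the neighbours of HTZ1, the 5 genes most like HTZ1 and SWR1, and strain markers. HTA2 and INO80 under other settings, the lists and H2AZ_4KR against WT_Ino80 without WT_Ino80 replicate 1, and the ratios within a library were added after seeing the data.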

Additional observations from a re-analysis of the deposited data

Results flagged for a closer look

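The change of HTZ1 differed between the mutants by 2.30 on the log2 scale (edgeR, 95% interval 1.88 to 2.72, adjusted p = 7.48e-05), with 3 of 3 H2AZ_4KR libraries above every WT_H2AZ library and Ino80_K929R libraries that overlapped those of WT_Ino80. It is listed because the difference between the 2 mutant effects itself passed the test. HTZ1 is the gene that carries the mutation in H2AZ_4KR.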

How the results depend on the processing

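The HTZ1 call in H2AZ_4KR held in all 15 alternatives (log2 1.51 to 2.23), and 0 of 10 genes were called in Ino80_K929R under every alternative run, with or without a library. Genes called in H2AZ_4KR numbered 1 by glmTreat at 1.5-fold, 1 at a fold over 2 and 1 to 3 with a library left out. For the difference between the mutants there were 2 by DESeq2, 2 with total counts and 1 to 2 with a library left out. Between the wild types there were 2 with the length offset, 1 by glmTreat, 1 at a fold over 2 and 3 to 4 with a library left out; HTZ1 was then at 0.57 with total counts and 0.38 with the length offset, and YAF9 at 0.54 with the length offset, all under the fold limit.

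Signs turned only for genes that were not called. In H2AZ_4KR these were VPS72 (-0.088 with total counts, -0.062 to 0.16 with a library left out), SWC3 (0.021 with the length offset), SWC4 (-0.11 with total counts), SWC5 (-0.49 against WT_Ino80) and SWC7 (-0.47 to 0.32 with a library left out, 1.34 against WT_Ino80). In Ino80_K929R they were HTZ1 (0.065 with the length offset), SWC3 (-0.25 to 0.21 with a library left out), SWC4 (-0.11 to 0.039 with a library left out) and ARP6 (0.043 with total counts, -0.12 to 0.12 with a library left out). The causes were not tested. Deviations of same-numbered replicates went together for some numbers only. Between WT_H2AZ and H2AZ_4KR the correlations of replicates 1, 2 and 3 were 0.28, 0.32 and -0.103, against -0.438 to 0.206 for different numbers. Between WT_Ino80 and Ino80_K929R they were 0.526, -0.606 and -0.199, against -0.688 to 0.773. A fit with the replicate number as a block called 3 genes in H2AZ_4KR, 0 in Ino80_K929R, 1 between the mutants and 4 between the wild types. Depth limits SWC7, at 0 to 76 fragments a library.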
